A study of Mus musculus with 16 samples.

Results

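The interleukin-1 (IL-1) family was followed here as 9 genes in normal mouse skin and in skin carcinomas that lack p53. The genes were taken by symbol: the ligands Il1a, Il1b, Il18, Il33, Il1f6 (also called Il36a) and Il1f9 (Il36g), the receptor antagonist Il1rn, and the receptors Il1r2 and Il1rl1. Of the 9 genes, 8 had a probeset that the array annotation gives to that gene alone, and Il1rl1, which encodes the receptor of IL-33, is not analysed here. The 8 genes were read on 10 of 45037 probesets, because Il1rn had 3, and they stand among 18193 genes that were each read from their brightest probeset.

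RNA came from 4 samples of control skin and 12 carcinomas of mice of the FVB background, with 1 Affymetrix MOE430 2.0 array per sample. Control skin came from normal wild type animals, and ages are not given in the labels. The 7 p53 tumors arose in k14Cre;p53loxP/loxP mice and the 5 pRbp53 tumors in k14Cre;p53loxP/loxP;pRbloxP/loxP mice, so every tumor shares the p53 deletion. Cre was driven by the keratin 14 promoter, which is active in stratified epithelia, and stroma and immune cells keep both genes. By histology 3 tumors were poorly differentiated, all of them p53 tumors, and 3 were mixed (p53 tumors 1 and 7 and pRbp53 tumor 4). The remaining 6 were undifferentiated (p53 tumor 3) or spindle (p53 tumor 6 and pRbp53 tumors 1, 2, 3 and 5) and were taken as 1 class. A change of the 6 against the 3 poorly differentiated tumors is called a change by grade. All 3 poorly differentiated tumors are p53 tumors and most of the 6 are pRbp53 tumors, so grade and genotype cannot be fully told apart.

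IL-1 family cytokines are alarm signals of barrier tissues. IL-1α, IL-33 and the IL-36 cytokines are made by epithelial cells, and IL-1β mainly by myeloid cells. IL-1β and IL-18 become active by cleavage, mainly by caspase-1 in an inflammasome. The ligands bind paired receptors that signal through MyD88 and IRAK kinases to NF-κB, and they are held in check by receptor antagonists and by decoy receptors. In skin the family is known for starting inflammation after injury and in psoriasis-like disease.

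Values are log2 signals from RMA, and differences are differences of log2 signal with their standard error (SE). Array medians ran from 5.63 to 5.76. As a sign of RNA quality, actin read at its 3′ end exceeded actin read at its 5′ end by 1.33 in control skin 3, by 1.67 in p53 tumor 7, and by 0.21 to 0.68 in the other arrays. Control skin 2 and 4 were the closest pair of one group, with a median absolute difference of 0.121 per probeset. Rb1, the gene deleted in the pRbp53 mice, lay between 8.98 and 9.54 in control skin, 7.57 and 8.50 in p53 tumors, and 7.10 and 7.94 in pRbp53 tumors, and its difference between the tumor genotypes was −0.36 ± 0.19 (SE, adjusted p = 0.601). The sources used here do not say whether its probeset lies in the deleted exons, so it does not check the labels.

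The upstream sequences of the 4 genes that fell in tumors, and of Il1b, the 1 gene whose tumor mean was above that of control skin, are shown so that the genes can be told apart at their starts. Each run holds the 250 bases before the transcription start, 5′ to 3′ on the strand of the gene, from RefSeq with build GRCm38.p6. Capitals mark matches on either strand to short motifs: the TATA box TATAAA, the AP-1 site TGANTCA, the E-box CACGTG, the PU.1 core GAGGAA and a loose κB pattern. None of the matches shown overlap each other.
Il1a, chr2:129309973-129310222, minus strand: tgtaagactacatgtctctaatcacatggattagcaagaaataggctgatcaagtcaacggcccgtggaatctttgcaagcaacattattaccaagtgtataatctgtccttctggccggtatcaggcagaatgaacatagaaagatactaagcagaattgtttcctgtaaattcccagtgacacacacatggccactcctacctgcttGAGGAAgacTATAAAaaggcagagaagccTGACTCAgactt
Il1b, chr2:129371140-129371389, minus strand: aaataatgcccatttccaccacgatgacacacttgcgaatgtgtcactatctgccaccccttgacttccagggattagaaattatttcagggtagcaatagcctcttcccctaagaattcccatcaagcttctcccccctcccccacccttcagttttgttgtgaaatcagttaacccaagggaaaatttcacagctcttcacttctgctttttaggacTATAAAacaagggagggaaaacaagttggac
Il18, chr9:50554450-50554699, plus strand: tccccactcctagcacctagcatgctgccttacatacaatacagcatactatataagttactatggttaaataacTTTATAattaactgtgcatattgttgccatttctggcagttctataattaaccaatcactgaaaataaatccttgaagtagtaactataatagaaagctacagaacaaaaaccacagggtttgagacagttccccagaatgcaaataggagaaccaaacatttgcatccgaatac
Il1f9, chr2:24186226-24186475, plus strand: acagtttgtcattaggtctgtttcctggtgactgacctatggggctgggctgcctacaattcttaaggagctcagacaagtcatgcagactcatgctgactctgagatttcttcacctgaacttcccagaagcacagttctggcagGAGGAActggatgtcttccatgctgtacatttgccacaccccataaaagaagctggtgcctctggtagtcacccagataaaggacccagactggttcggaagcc
Il1r2, chr1:40085843-40086092, plus strand: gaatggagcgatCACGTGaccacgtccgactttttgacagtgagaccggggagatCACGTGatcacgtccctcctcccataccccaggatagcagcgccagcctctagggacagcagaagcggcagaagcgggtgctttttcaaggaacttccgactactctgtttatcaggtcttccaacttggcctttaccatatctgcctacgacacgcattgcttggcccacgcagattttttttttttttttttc

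TATAAA began 32 bases before the start of Il1a and 31 bases before that of Il1b, and it is found in 12.4% of the 32851 windows of the same length in the RefSeq table. The Il18 window held it on the opposite strand, 175 bases before the start. The AP-1 motif 12 bases before the start of Il1a is found in 6.75% of windows, and GAGGAA, 41 bases before the start of Il1a and 104 before that of Il1f9, in 23.3%. CACGTG stood 238 and 195 bases before the start of Il1r2 and is found in 6.02% of windows. The κB pattern, present in 45.8% of windows, had no match in these 5. A match is a description of letters and not a site of binding.

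The first comparison asks how the family differed between all 12 tumors and control skin. Of the 8 genes, 4 fell in tumors, namely Il1r2, Il1f9, Il18 and Il1a, and 0 rose at an adjusted p of 0.05. Of all 18193 genes, 9.17% fell. The median difference of the 8 genes was −1.29, against 0.06 over all genes, and 7 of the 8 were below 0. The 12 tumors lay wholly below the 4 controls for 3 genes, Il1r2, Il1f9 and Il18, as they did for 5.54% of all genes. Fewer cells of a type and less RNA per cell cannot be told apart in these bulk samples, and p-values rest on the spread of these samples alone, since the labels do not say that each came from its own animal.

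**Figure D1:**
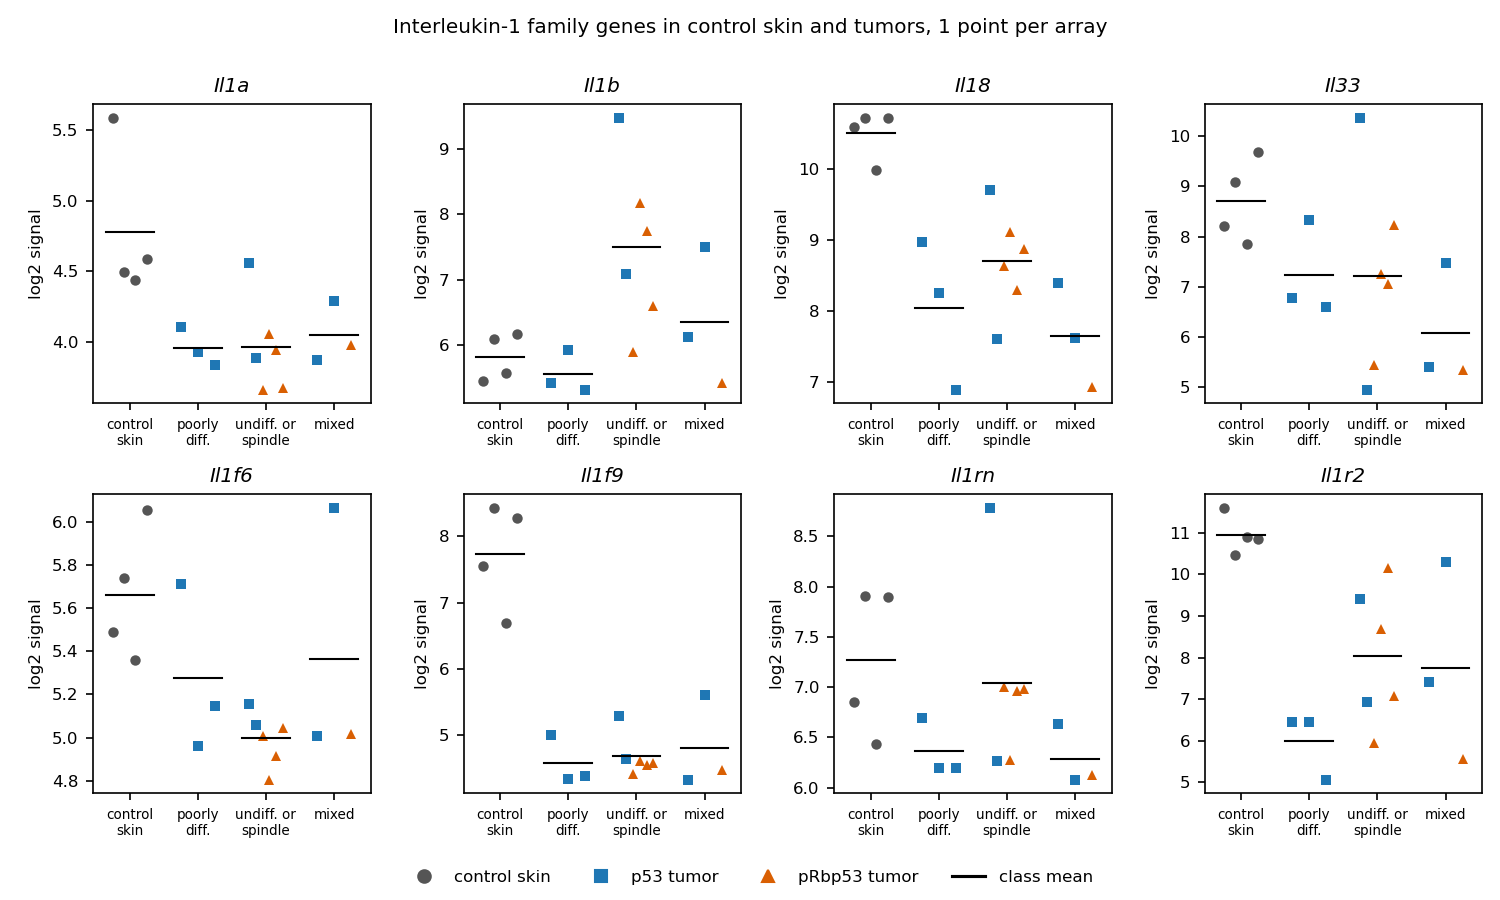
Log2 signal of the 8 measured genes (1 panel each, with its own vertical axis) in each array, by control skin and histological class. Circles are control skin, squares p53 tumors and triangles pRbp53 tumors, and lines are class means. Il1f9 stayed at or below 5.60 in every tumor and at or above 6.69 in every control, whereas Il1b was highest in p53 tumor 3, at 9.47.

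Il1f9 encodes IL-36γ, a ligand that keratinocytes make under stress. Its signal was 7.56, 8.43, 6.69 and 8.27 in control skin 1 to 4, and 4.33, 4.56 and 5.60 at the lowest, median and highest of the 12 tumors. Every tumor was below every control, by a mean of −3.05 ± 0.28 (8.30-fold, adjusted p = 1.36e-06). The tumors were also close to each other: the standard deviation (SD) was 0.40 in all 12 and 0.08 in the 5 pRbp53 tumors. Its mean over the arrays was at or above that of 45.4% of probesets, so the tumor values stand near the dim end of the scale, where a fall can be understated.

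Il18 encodes a caspase-1 substrate that epidermis stores as a precursor, and it drives interferon-γ production by T and NK cells. It was bright in control skin, at 10.58, 10.72, 9.99 and 10.70, and stood at 6.89, 8.34 and 9.70 at the lowest, median and highest tumor. No tumor reached the controls. The difference was −2.23 ± 0.43 (4.68-fold, adjusted p = 0.00237). The highest tumor was p53 tumor 3, at 9.70, and the lowest control was control skin 3, at 9.99.

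Il1r2 encodes the decoy receptor that binds IL-1 without signalling. It had the largest mean difference of the 8 genes, −3.50 ± 0.86 (11.3-fold, adjusted p = 0.0126), and also a wide spread. Control skin read 11.60, 10.47, 10.88 and 10.85, and tumors ran from 5.07 through a median of 7.0 to 10.29. The tumors spanned 5.23 log2 units, against 1.13 in the controls, and p53 tumor 7 (10.29), pRbp53 tumor 3 (10.14) and p53 tumor 3 (9.40) lay closest to skin. Without control skin 1 the difference was −3.29 and the call was lost (adjusted p = 0.0551).

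Il1a encodes IL-1α, which keratinocytes hold in the cell and release when damaged. The array read it weakly, with a mean at or above that of 25.6% of probesets only. Control skin stood at 5.59, 4.50, 4.44 and 4.59 and tumors at 3.66, 3.94 and 4.56 at the lowest, median and highest. The groups overlapped, because p53 tumor 3 was above control skin 2 and 3. The difference was −0.80 ± 0.19 (1.74-fold, adjusted p = 0.0101), and control skin 1 stood above the other controls. Without it the difference was −0.53 (adjusted p = 0.0459). With the methods' t-test the adjusted p was 0.163.

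The other 4 genes did not pass. Il33, a nuclear alarmin that acts on mast cells and innate lymphoid cells, read 8.22, 9.09, 7.85 and 9.69 in control skin and 4.95, 6.92 and 10.37 at the lowest, median and highest tumor. Its difference was −1.78 ± 0.79 (adjusted p = 0.161). The highest value of all 16 arrays was a tumor, p53 tumor 3, and without it Il33 passed, at −2.09 (adjusted p = 0.0378). In 28 of 30 alternative settings Il33 did not pass.

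Il1f6 encodes IL-36α. Its values lay close together, at 5.49, 5.74, 5.36 and 6.06 in control skin and 4.81, 5.03 and 6.07 at the lowest, median and highest tumor. The difference was −0.50 ± 0.20 (adjusted p = 0.110). Only p53 tumors 2 and 7 exceeded the lowest control, and without p53 tumor 7 the gene passed (−0.59, adjusted p = 0.0136). In 25 of 29 alternative settings Il1f6 did not pass.

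Il1b was the 1 gene with a positive difference, 0.90 ± 0.63 (adjusted p = 0.402). It encodes IL-1β, the main secreted IL-1 of myeloid cells. Control skin read 5.45, 6.10, 5.57 and 6.18, and the tumors ran from 5.32 through 6.36 to 9.47. The tumors spanned 4.15 log2 units and the controls 0.73, so the tumors lay on both sides of the controls.

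Il1rn encodes the IL-1 receptor antagonist, which blocks the receptor for both IL-1α and IL-1β, and its 3 probesets gave different calls. On the brightest probeset (1423017_a_at) control skin read 6.85, 7.91, 6.44 and 7.89 and tumors 6.08, 6.45 and 8.79 at the lowest, median and highest, a difference of −0.59 ± 0.41 (adjusted p = 0.395). Probeset 1425663_at read 6.97, 7.52, 7.55 and 7.51 in control skin and 5.15, 6.05 and 7.39 in tumors. It fell by 1.27 ± 0.33 (adjusted p = 0.0166).

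The third Il1rn probeset, 1451798_at, read 7.54, 8.08, 7.21 and 8.01 in control skin and 4.46, 6.59 and 8.75 at the lowest, median and highest tumor. Its difference was −1.21 ± 0.56 and did not pass (adjusted p = 0.178), but it passed as lower with the methods' t-test (adjusted p = 0.0413) and with array weights (adjusted p = 0.0143). All 3 probesets were lower in the tumor mean, and p53 tumor 3 was the highest tumor on each. The fall on 1425663_at did not pass when control skin 2, 3 or 4 was left out, with an adjusted p of 0.0562, 0.0582 and 0.0552. Which transcripts each probeset reads was not looked up.

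**Figure D2:**
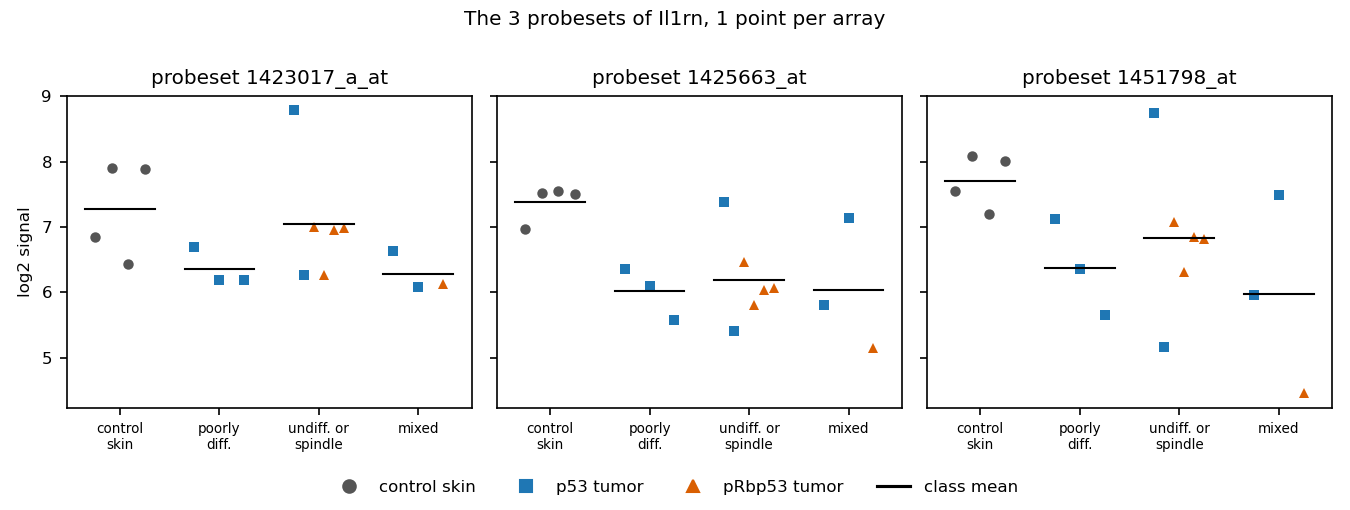
Log2 signal of the 3 Il1rn probesets in each array on a shared vertical axis, by control skin and histological class. Circles are control skin, squares p53 tumors, triangles pRbp53 tumors, and lines class means. On 1423017_a_at the controls reach down to 6.44 among the tumors, whereas on 1425663_at the lowest control is 6.97 and p53 tumors 3 and 7 alone are above it.

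The next comparison places the histological classes beside skin and each other. Il1f9, Il18 and Il1r2 fell in the 3 poorly differentiated tumors against control skin (3 of 8 genes, against 8.40% of all genes). In the 6 undifferentiated or spindle tumors the same 3 genes fell, with Il1a and Il1f6 (5 of 8 genes, against 12.5% of all genes). Il1rn, counted by its brightest probeset, did not pass there. Its probeset 1425663_at did pass as lower (−1.19, adjusted p = 0.0448), and lost its call in 13 of 19 alternative settings. Some of these calls were less firm. Over the alternative settings, a stricter threshold among them, Il1f6 lost its call in 13 of 19 and Il1r2 in 8 of 20, and with any 1 of the 10 arrays left out, 2 to 4 of the 8 genes passed (counting Il1b as higher without pRbp53 tumor 1 or 5). Il1f9 kept its call in all 19, and Il18 lost its call in 1 of 20. Both comparisons share the 4 control arrays and are given side by side, from 1 fit over all 16 arrays. Il1f9 differed by −3.16 ± 0.40 and −3.06 ± 0.33, and Il18 by −2.46 ± 0.51 and −1.80 ± 0.43, in poorly differentiated and in undifferentiated or spindle tumors. Il1r2 differed by −4.96 ± 1.05 and −2.92 ± 0.89, and Il1b by −0.27 ± 0.67 and 1.67 ± 0.57 (adjusted p = 0.867 and 0.0543). In undifferentiated or spindle tumors Il1b passed as higher than control skin in 8 of 20 alternative settings, a looser threshold among them, with an adjusted p from 0.0182 to 0.135 over the 20.

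Between the 2 tumor classes themselves, 0 of the 8 genes passed in the limma fit, while 9.12% of all genes did in one direction or the other. At an unadjusted p under 0.05 the count was 1, Il1b, and the methods' t-test with adjustment also called 0. Il1b read 5.32, 5.42 and 5.93 in the poorly differentiated tumors, and 5.90, 7.41 and 9.47 at the lowest, median and highest of the 6 others. The classes overlapped in 1 tumor, pRbp53 tumor 1, and the difference was 1.94 ± 0.68 (95% interval 0.39 to 3.49, adjusted p = 0.134).

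Il1r2 read 5.07, 6.44 and 6.46 in the poorly differentiated tumors and 5.94, 7.88 and 10.14 at the lowest, median and highest of the undifferentiated or spindle ones, also with 1 tumor inside the range of the other class. Its difference was 2.04 ± 0.91 (95% interval −0.03 to 4.11, adjusted p = 0.236). Il18 differed by 0.66 ± 0.53, Il1rn by 0.68 ± 0.51 and Il1f6 by −0.28 ± 0.16, none of which passed. Il33 was split within both classes, from 6.60 to 8.34 in poorly differentiated and from 4.95 to 10.37 in undifferentiated or spindle tumors, and differed by −0.02 (95% interval −2.51 to 2.47). The interval of Il33 leaves room for a difference of several-fold in either direction.

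Single tumors set much of the spread. p53 tumor 3, the only undifferentiated tumor, was the highest of the 12 tumors for 5 of the 8 genes: Il1a (4.56), Il1b (9.47), Il1rn (8.79), Il18 (9.70) and Il33 (10.37). p53 tumor 7, a mixed tumor, was the highest for the other 3, Il1f6 (6.07), Il1f9 (5.60) and Il1r2 (10.29), and it is also the array with the largest actin difference. The mixed tumors did not resemble each other: pRbp53 tumor 4 read 5.57 for Il1r2, 5.43 for Il1b and 6.93 for Il18, and p53 tumor 1 read 7.41, 6.12 and 8.39.

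The genotype comparison sets pRbp53 against p53 tumors, which also differ in histology, so a difference could not be laid to pRb loss alone. None of the 8 genes passed between pRbp53 and p53 tumors at an adjusted p of 0.1 in the limma fit (0 at an unadjusted p under 0.05, and 0 with the methods' t-test). Of all genes, 0.159% passed. The differences ran from −0.47 for Il33 (95% interval −2.40 to 1.46) to 0.16 for Il18 (−0.92 to 1.24). The narrowest interval was that of Il1a, −0.52 to 0.10, and Il1f6 had the lowest adjusted p, 0.618, at −0.34 ± 0.19.

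Set against control skin, which both genotypes share, the p53 and the pRbp53 tumors gave −2.94 and −3.21 for Il1f9, −3.52 and −3.47 for Il1r2, −2.29 and −2.13 for Il18, and −0.71 and −0.92 for Il1a. All 4 passed in both genotypes, but the share of all genes that passed against control skin in each genotype is not given here. The calls by genotype are therefore no measure of the family alone. Il1f6 passed in pRbp53 tumors (−0.70, adjusted p = 0.0430) and not in p53 tumors (−0.36, adjusted p = 0.286). For Il1f6 the difference between the genotypes is the one given above and did not pass. Il1rn probeset 1425663_at also passed in pRbp53 tumors (−1.48, adjusted p = 0.019) and not in p53 tumors (−1.13, adjusted p = 0.052). Between the genotypes it did not pass (−0.35, adjusted p = 0.814).

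**Figure D3:**
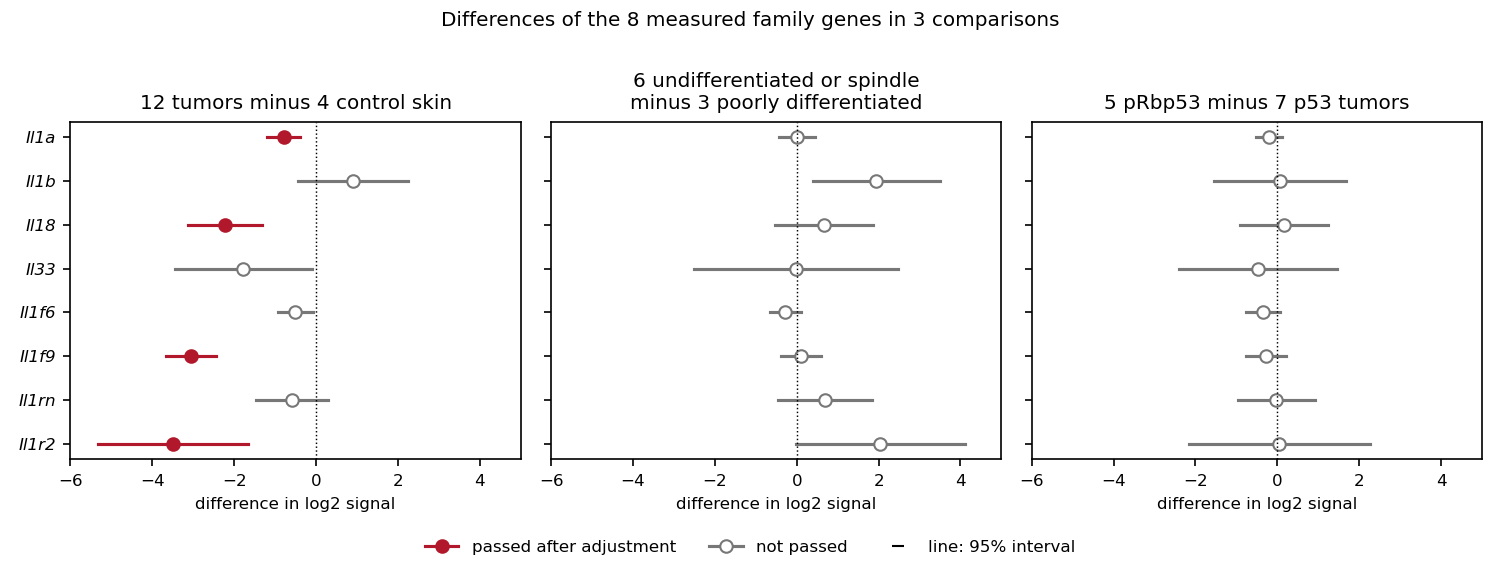
Difference in log2 signal with its 95% interval for the 8 genes in 3 comparisons: tumors minus control skin, undifferentiated or spindle minus poorly differentiated tumors, and pRbp53 minus p53 tumors. Filled red points passed after adjustment over all probesets and open grey points did not. The 4 filled points, all left of 0, lie in the first panel, and the intervals of Il1r2 and Il33 are the widest.

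The ligands outside the 9 genes fell as well. Il1f5, which encodes the IL-36 receptor antagonist, Il1f8 (IL-36β) and Il1f10 (IL-38) all fell in tumors, 3 of 3. Il1f5 lay between 9.10 and 9.86 in control skin and between 5.33 and 7.0 in tumors, a difference of −3.82 ± 0.28 (adjusted p = 8.42e-08). Il1f8 fell by 1.69 ± 0.19 and Il1f10 by 1.58 ± 0.15, and no tumor overlapped the controls for any of the 3. None differed between the tumor classes or the genotypes at the thresholds used, and 0 of the 3 had an unadjusted p under 0.05 by class.

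Of 9 receptors and decoys, Il1rl2, the IL-36 receptor, fell by 2.02 ± 0.36 in tumors (adjusted p = 0.00124), from 9.51 to 9.73 in control skin to between 5.47 and 8.30. The other 8 did not pass, and Il1r1, the signalling IL-1 receptor, stood at −0.24 ± 0.47 (adjusted p = 0.792). Il18rap, the accessory chain of the IL-18 receptor, rose with grade. It read 5.80, 5.86 and 5.87 in poorly differentiated tumors and 6.60, 7.82 and 9.44 at the lowest, median and highest of the undifferentiated or spindle tumors, a difference of 2.06 ± 0.52 (adjusted p = 0.0470). Il18r1, the chain that binds IL-18, did not pass there (−1.21 ± 0.99).

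In the RefSeq order of protein-coding genes, Il1f8, Il1f9, Il1f6, Il1f5, Il1f10 and Il1rn are 6 direct neighbours on chromosome 2. Il1a and Il1b are a pair further along the same chromosome, and Il1r2, Il1r1, Il1rl2, Il1rl1, Il18r1 and Il18rap are 6 neighbours on chromosome 1. Within the first run, 4 genes fell in tumors (Il1f8, Il1f9, Il1f5, Il1f10), and Il1f6 (−0.50) and the brightest Il1rn probeset (−0.59) were below 0 and did not pass. In the pair, Il1a fell and Il1b did not. On chromosome 1, Il1r2 and Il1rl2 fell, and Il1r1 between them did not pass.

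**Figure D4:**
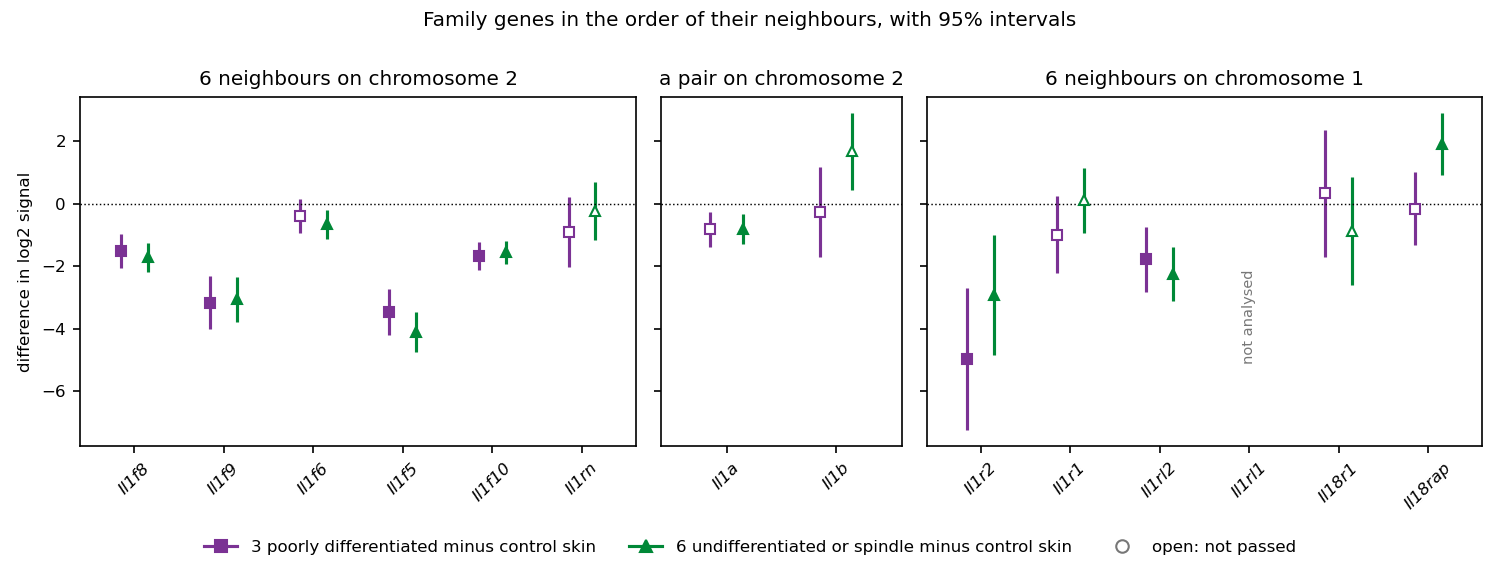
Difference in log2 signal from control skin, with 95% intervals, of poorly differentiated (squares) and of undifferentiated or spindle tumors (triangles), for family genes in the order of their neighbours. Both share the control arrays, filled marks passed after adjustment, and Il1rl1 is not analysed. Il1f5 and Il1f9 are more than 3 below control skin in both classes, whereas Il18rap is above it in the undifferentiated or spindle class alone (1.90).

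The machinery that activates the cytokines was followed with 20 listed genes, 17 of them measured. In tumors 5 fell and 0 rose: Nlrp10, an epidermal NOD-like receptor (−3.78 ± 1.07), the mast cell chymases Mcpt4 (−3.26 ± 0.73) and Cma1 (−3.25 ± 0.67), Pycard and Capn1. Nlrp10 ran from 8.35 to 8.61 in control skin and from 3.10 to 3.59 in undifferentiated or spindle tumors. It reached 8.56 in a poorly differentiated tumor and 8.72 in a mixed one. Pycard encodes ASC, the adaptor of inflammasomes, and fell by 2.12 ± 0.64. Casp1 itself differed by −0.06 ± 0.85. The list's median was 0.03, against 0.06 over all genes.

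By grade, 4 of these 17 genes rose and 1 fell in undifferentiated or spindle tumors. Gsdmd, the pore protein cut by caspase-1, rose by 2.08 ± 0.19 (adjusted p = 4.27e-04), Ctss, a cathepsin of myeloid cells, by 1.76 ± 0.24, and Capn2 and the sensor Nlrp3 also rose. Pycard fell by 1.85 ± 0.19 (adjusted p = 8.23e-04). Casp1 differed by −0.21 ± 1.13 by grade and did not pass.

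Of 22 genes of signal transduction, 19 were measured. Irak3, which encodes an inhibitory member of the IRAK family (−1.81 ± 0.39), and Mapk14, which encodes a p38 kinase (−0.42 ± 0.11), fell in tumors, and the other 17 did not pass. Myd88, the shared adaptor, differed by −0.05 ± 0.29 between tumors and control skin and rose by 0.86 ± 0.22 in undifferentiated or spindle tumors (adjusted p = 0.0481).

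Of 22 genes that IL-1 is known to induce in many cells, 3 rose in tumors and 0 fell. These were S100a8, which encodes a neutrophil and keratinocyte alarmin (3.29 ± 1.02), the acute phase gene Saa3 (2.30 ± 0.71) and the chemokine Cxcl1 (0.71 ± 0.16). The list's median was 0.74, against 0.06 over all genes, and 10 had an unadjusted p under 0.05. By grade Mmp3, a matrix protease (4.94 ± 1.20), Ptgs2, which encodes cyclooxygenase-2 (4.34 ± 0.74), and the chemokine Ccl2 (3.05 ± 0.75) rose. Ptgs2 read 3.83, 4.68 and 5.99 in poorly differentiated tumors and 7.95, 8.89 and 11.41 at the lowest, median and highest of the others.

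Lcn2, a lipocalin of inflamed epithelium and neutrophils, ran the other way and fell by 5.42 ± 0.89 by grade (adjusted p = 0.00854). It read 11.81, 11.96 and 13.34 in poorly differentiated tumors. Control skin ran from 4.17 to 8.72 and undifferentiated or spindle tumors from 5.05 to 9.23. Of 6 measured products and regulators of type 2 and lymphoid cells, Gata3 fell in tumors, by 4.32 ± 1.16, and it is also a factor of hair follicle and epidermis. The other 5 did not pass, and Il4, Il5, Il13, Ifng and Il17a all had means below 4.5 in both groups.

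Marker genes of several cell types also differed in signal between the groups. Of 14 keratinocyte markers 10 fell in tumors, led by Krtdap (−7.95), Krt1 (−7.74) and Dsg1a (−7.21), and their mean signal was 11.83 to 12.04 in control skin, 5.58 to 9.38 in poorly differentiated, 5.70 to 10.41 in mixed and 4.54 to 5.29 in undifferentiated or spindle tumors. p53 tumor 7 had the highest keratinocyte mean of the tumors, 10.41, and Il1f9 there was 5.60. In p53 tumor 3, where Il18 and Il33 were highest, the keratinocyte mean was 5.29. By grade Epcam (−6.96) and Cdh1 (−6.09) fell. The part of these shifts in the values of the family was not tested.

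The 11 measured macrophage and monocyte markers had 0 calls between tumors and control skin (0 at an unadjusted p under 0.05) and 9 rises by grade, led by Mrc1 (2.98), C1qa (2.53) and Itgam (2.48). Their mean signal was 7.72 to 8.30 in poorly differentiated and 9.27 to 10.53 in undifferentiated or spindle tumors. Il1b differed between the same classes by 1.94 and did not pass (adjusted p = 0.134). Of 9 fibroblast markers 5 also rose by grade, led by Pdgfra (3.19), Dcn (3.02) and Col1a1 (2.91). Against control skin the fibroblast list had a median of −2.44 in poorly differentiated and −0.68 in undifferentiated or spindle tumors. The macrophage list had −0.72 and 1.22. Neutrophil markers had a mean of 5.18 to 5.56 in control skin and 5.30 to 8.50 in tumors. Of 8 measured, S100a8 rose in tumors. By grade Ltf fell by 5.59, from a mean of 11.40 to one of 5.81, and its mean in control skin was 5.09. The other 7 did not pass by grade, and the list median was 0.96. Against control skin 5 of the 8 neutrophil markers rose in undifferentiated or spindle tumors. Their part in the values of Il1b was not tested.

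Of 10 mast cell and basophil markers 4 fell in tumors, among them Cpa3 (−4.11), Mcpt4 and Cma1, and 0 passed as higher. The markers did not move together. Tpsab1 had a mean of 5.02 in control skin and 7.11 in tumors, and Kit, Hdc, Mcpt8 and Fcer1a also had higher tumor means. The median difference of the list was −0.40. By grade Kit fell by 4.48, and it was the 1 marker of the list that passed, whereas the median of the list was 1.05. Its mean was 11.16 in poorly differentiated tumors, 6.68 in undifferentiated or spindle tumors and 6.58 in control skin. Of 9 lymphoid markers 3 fell in tumors, Gata3, Cd3g (−3.62) and Cd3e (−1.32), and Ptprc rose by 2.32 by grade. Among 8 Langerhans and dendritic markers, Cd207, which marks Langerhans cells, fell by 4.08 and Flt3 by 0.44 in tumors. Sprr1a (−4.46) was the 1 of 7 stressed keratinocyte markers that fell in tumors, and of 8 endothelial markers Tek fell (−2.14), Flt1 rose (1.22) and, by grade, Pecam1 rose (0.86).

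**Figure D5:**
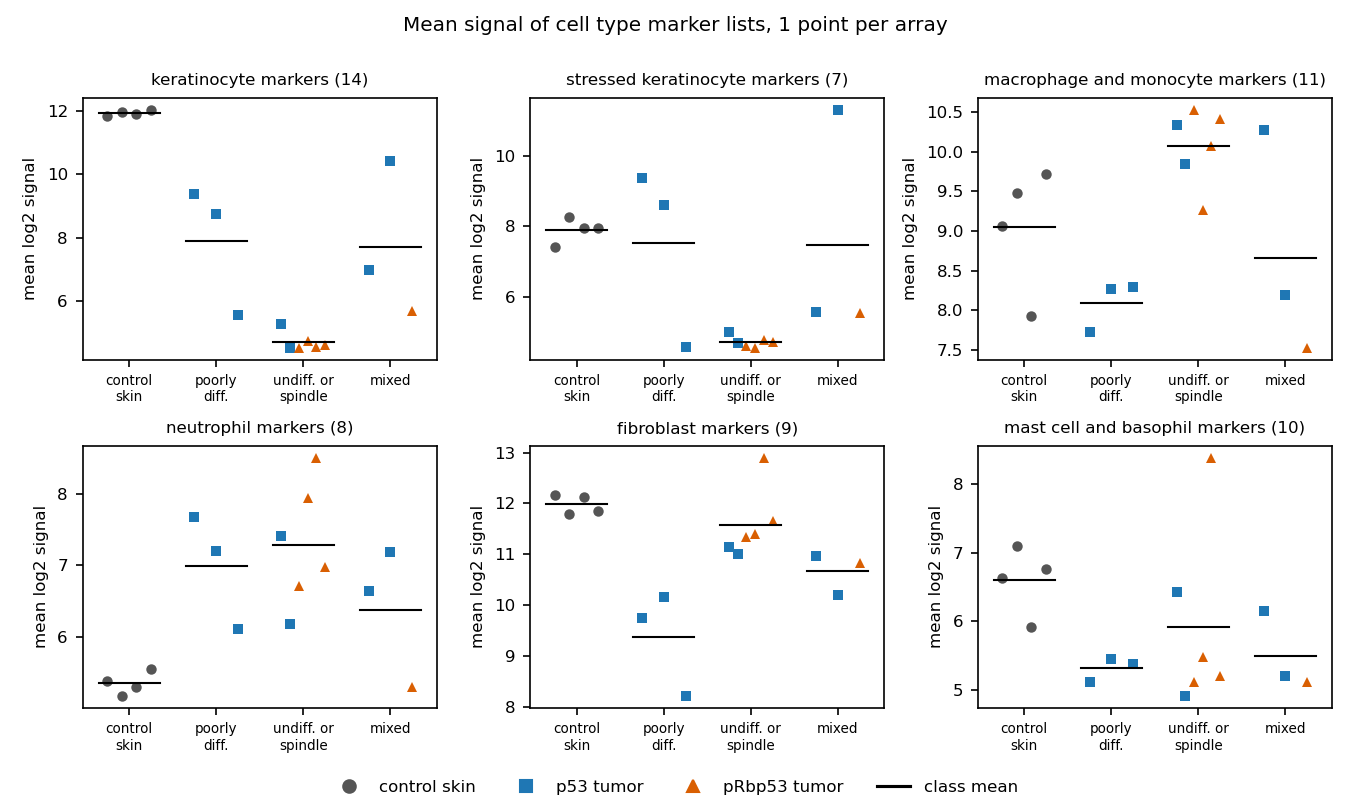
Mean log2 signal of 6 marker lists in each array (the number of measured genes stands in each title, and each panel has its own vertical axis), by control skin and histological class. Circles are control skin, squares p53 tumors, triangles pRbp53 tumors, and lines class means. The keratinocyte mean is 11.83 or more in every control and 5.29 or less in every undifferentiated or spindle tumor, and the macrophage mean of that class starts at 9.27, above the 8.30 of the highest poorly differentiated tumor.

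The genes most like each family member over the 12 tumors are given by Pearson r, as a description, since the tumors share the extreme arrays named above. Il1b was followed most closely by Dnase1l3 (r = 0.93), Il11 (0.92), a cytokine of the IL-6 family, and Lst1 (0.91). Il1r2 was followed by Gpr132 (0.96), Cfap45 (0.89) and Gcnt2 (0.88), and Il1f6 by Fxyd4 (0.97), Lbhd2 (0.97) and 2310011E23Rik (0.96). For Il1f9 they were Epgn (0.90), an epidermal growth factor of the EGF family, Dnaaf6 (0.90) and Acod1 (0.88), and for Il1a F5 (0.91), Prl7b1 (0.90) and Acod1 (0.87).

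For Il1rn the closest genes were Mgl2 (0.94), a lectin of macrophages, Gm10419 (0.93) and Ankib1 (0.92). Il18 and Il33 had the loosest companions. For Il18 they were Wdr44 (0.84), Gm9947 (0.83) and Sh3bp2 (0.83), and for Il33 Csnk1g1 (0.85), Jak2 (0.82) and the mast cell protease Mcpt1 (0.81). Each list is the top of 18193 genes, so high values of r are found for any gene.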

How the data were processed

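RNA of 16 samples was measured on Affymetrix MOE430 2.0 arrays. The authors made the values with RMA, and the deposited values are log2 signals of 45101 probesets. The version of RMA is not given in the sources used here. After 64 array controls were left out, 45037 probesets were tested. Genes were named from a 2016 array annotation, which gives 34945 of these probesets 1 symbol, 932 several and 9160 none.

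Samples were grouped by their titles and histology labels. Each probeset was given a linear model (limma 3.58.1, R 4.3.3, moderated variances), and two-sided p-values were adjusted by Benjamini-Hochberg over all probesets. The threshold was an adjusted p of 0.05, or 0.1 for genotype. Tumors, genotype and grade had a fit of their own, and the classes against control skin shared 1 fit of 4 classes. The fits were tested on simulated data. Precision is limited by the number of arrays. The methods' t-test was run as Welch's form on the same values.

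The members and the gene lists were chosen with earlier results of these data known. The text names the members, up to 3 genes of each list with the largest difference among those that passed, for tumors and for grade, 3 genes most like each member, and Rb1. Casp1, Il1r1, Il18r1, Capn1, Pycard in tumors, Capn2, Nlrp3, Ccl2, the type 2 cytokines and Myd88 between tumors and skin were chosen after their values were seen or for their place in the genome. Other settings are listed in the closing section. Sequences and gene order came from RefSeq, GRCm38.p6, and figures were drawn with matplotlib 3.10.9.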

Additional observations from a re-analysis of the deposited data

Results flagged for a closer look

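In groups of 4 to 10 arrays, the highest or lowest array was set against its nearest neighbour by Dixon's test at the 95% level, and 5 of 40 such tests stood out, of which chance gives about 1 in 20. Il1a in control skin 1 read 5.59, and the next control read 4.59. Il1rn on 1423017_a_at read 8.79 in p53 tumor 3, with the next p53 tumor at 6.69, and the same array stood apart among the undifferentiated or spindle tumors, with the next at 7.0. Il1rn on 1425663_at read 6.97 in control skin 1, below the next control at 7.51. Il1f9 read 5.29 in p53 tumor 3, with the next undifferentiated or spindle tumor at 4.65.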

How the results depend on the processing

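Across 29 or 30 alternatives each, Il18 and Il1f9 passed as lower in all tumors against control skin in all of them, and Il1b passed there in none. Of the 8 genes, 4 passed between tumors and control skin. The count was 2 among the brighter probesets, which leave out Il1a, Il1f6 and Il1f9, 2 at an adjusted p of 0.01, 7 with array weights, and 3 to 5 when 1 array was left out. For undifferentiated or spindle tumors against control skin the count of 5, all lower, became 3 among the brighter probesets (Il18 and Il1r2 lower and Il1b higher, adjusted p = 0.0345), 2 at 0.01, and 2 to 4 when 1 array was left out (Il1b, higher, is counted without pRbp53 tumor 1 or 5; the count was 2 without control skin 1, and 3 without control skin 2, control skin 4 or p53 tumor 6). The count was 4 with control skin 2 and 4 averaged, and 5 without control skin 3 and p53 tumor 7, in tumors against control skin. Counts by grade and by genotype stayed at 0 under every alternative run. The share of all genes that passed under each setting is not given here, so the counts are no measure of the family alone. The cause of these changes was not tested beyond the fewer probesets of the filter.

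The difference of Il33 by grade, −0.02, changed sign with median centring (0.0023), array weights (0.0298), genotype as a covariate (0.42), p53 tumors only (0.42) and the mixed tumors pooled with the poorly differentiated ones (0.56), and ran from −0.66 to 0.53 when 1 tumor was left out. The cause was not tested.

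Whether the numbers in the titles mark pairs was not settled. The deviations of 3 of 13 like-numbered pairs across groups correlated above 0.1. Unlike-numbered pairs were not compared, so this count has no baseline. With the number as a replicate block, the counts were 3 for tumors (Il1a at an adjusted p of 0.0623), 3 for poorly differentiated and 2 for undifferentiated or spindle tumors against control skin, and 0 by grade and by genotype, and Il33 by grade became 1.05.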
